A study of Caenorhabditis elegans with 12 samples.

Results

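Early embryos that lack both MET-2 and LIN-65 were compared with embryos that lack MET-2 alone, gene by gene, to see which transcripts were higher or lower when lin-65 was also lost. The comparison covered all 2949 of the 2949 genes that the authors listed in at least 1 of their 3 tables, each gene taken once, and used 6 of the 12 libraries. The study sequenced total RNA of Caenorhabditis elegans early embryos from 4 strains with 3 libraries each. They were the N2 (Bristol) wild type, the met-2(n4256) III mutant, a lin-65(delta) I deletion mutant and the double mutant that carries both alleles. All strains were grown at 20 °C, harvested 60 to 65 h after synchronization depending on the strain, and their embryos held between 1 and 300 cells. Ribosomal RNA was removed from 5 µg of total RNA. The labels call the libraries of a strain independent biological replicates and tie none of them to a shared batch, although they name the molecule as genomic DNA. Each label stands for a pool of embryos of mixed age and cell type, so fewer cells of a type and less RNA per cell cannot be told apart. Stage was not checked against stage markers, because the tables hold only genes that the authors selected.

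MET-2 is the C. elegans relative of the mammalian enzyme SETDB1 and places methyl groups on lysine 9 of histone H3, a mark of silent chromatin. LIN-65 is a partner protein that helps MET-2 to accumulate in the nucleus of embryonic cells. The double mutant therefore differs from the met-2 mutant in the loss of a partner whose enzyme is already missing.

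All values are log2 values that the authors deposited relative to a baseline, read here as N2 because each mutated gene stood far below 0 in the strains that lack it and near 0 in the strain that does not. A value of 1 is a level 2-fold above N2. A difference is the mean of 3 double mutant libraries minus the mean of 3 met-2 libraries, and a gene is called higher or lower where limma gave a Benjamini-Hochberg adjusted p below 0.05 over all 2949 genes. The tables give no counts, so the depth behind a value is unknown. The p-values measure the spread between these libraries only.

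The mutated genes came first as a check of the labels. Transcripts of lin-65 (WBGene00022149 on chromosome I) had values of −0.26, −0.21 and −0.18 in the 3 met-2 libraries and of −6.27, −5.86 and −5.98 in the double mutant. All 3 double mutant libraries lay far below all met-2 libraries, at the level of the lin-65 single mutant, which had −5.90, −5.97 and −5.78. The difference was −5.82 (SE 0.20, limma adjusted p = 3.12e-14), or 56.5-fold. Transcripts of met-2 (WBGene00019883 on chromosome III) had values of −2.32, −2.39 and −2.35 in the met-2 mutant and of −2.73, −2.72 and −2.82 in the double mutant. The groups did not overlap, but the difference of −0.40 (SE 0.19, limma adjusted p = 0.137) was not called. It was called after replicate 1 of met-2 was left out, at −0.38.

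The libraries of the met-2 mutant did not lie together. Their medians over the 2949 genes were 1.53, 1.06 and 1.08, whereas those of the double mutant were 1.47, 1.48 and 1.49. Replicate 1 of met-2 was the highest of its group in 2462 genes (83.5%) and stood above all 3 double mutant libraries in 1010. The median SD per gene was 0.307 in met-2, 0.122 in its replicates 2 and 3 alone, and 0.117 in the double mutant. The median difference over all genes was 0.32, with 2419 genes (82.0%) above 0, and 0.47 without met-2 replicate 1. The library medians themselves did not separate the strains, with an exact 2-sided permutation p of 0.4 where 0.1 is the smallest that 3 against 3 libraries allow. Most genes had a difference above 0, although the median of met-2 replicate 1 lay above those of all double mutant libraries. Setting every library median to 0, called centring below, removes 0.26 of each difference, or 0.41 without met-2 replicate 1.

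**Figure D1:**
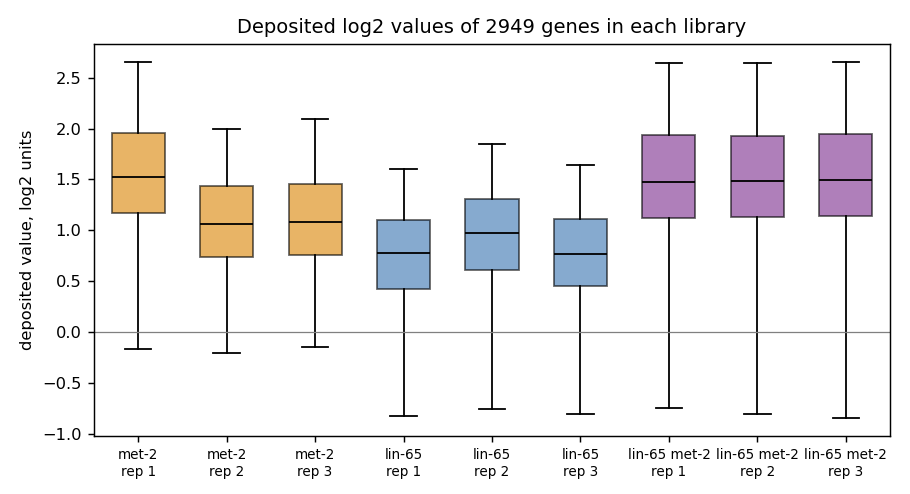
Deposited log2 values of the 2949 genes in each of the 9 mutant libraries, with the median as a line, the quartiles as a box and the 5th to 95th percentiles as whiskers. Replicate 1 of met-2 has a median of 1.53, next to the 3 double mutant libraries between 1.47 and 1.49 and above the other met-2 libraries at 1.06 and 1.08.

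In the double mutant 218 genes were called higher than in met-2, which is 7.39% of those tested, and 130 were called lower, which is 4.41%. Without met-2 replicate 1 the counts were 1892 higher (64.2%) and 206 lower (6.99%). After centring they were 92 higher (3.12%) and 256 lower (8.68%), so that the higher calls made up 62.6% of all calls as deposited and 26.4% after centring. With both changes together 234 genes were higher and 341 lower. The calls also moved with other libraries: 88 higher and 121 lower without met-2 replicate 2, 39 and 79 without met-2 replicate 3, 65 and 83 without double mutant replicate 1, 49 and 80 without replicate 2, and 47 and 76 without replicate 3. Of the 130 lower genes 127 were also lower in the 3 fits that left out met-2 replicate 1, centred the libraries or did both. Of the 218 higher genes 90 were higher in all of those fits. In 816 genes (27.7%) the 3 double mutant values lay above all 3 met-2 values, and in 238 genes (8.07%) below them. In all 14 alternative fits 49 of the lower and 20 of the higher genes were called. Genes listed for lin-65 alone, 18 lower and 24 higher, did not enter 1 of those fits and could not be counted.

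**Figure D2:**
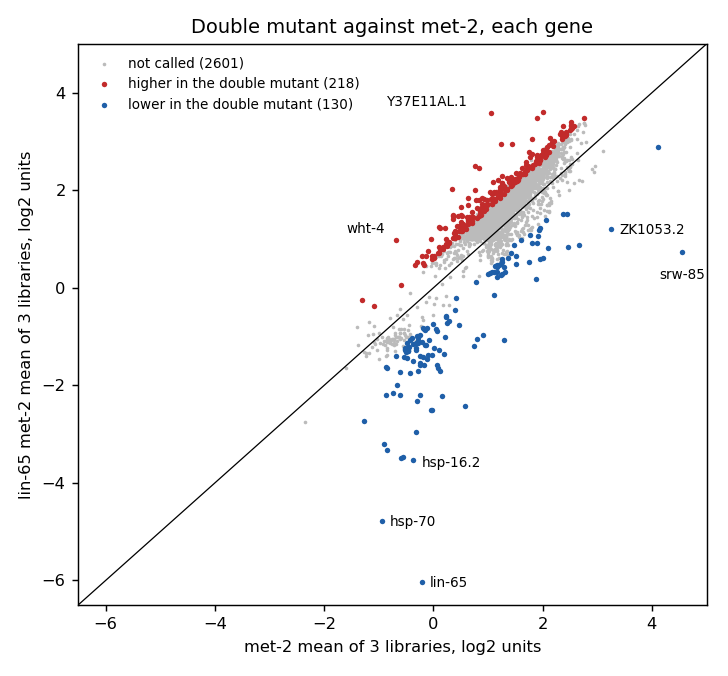
Mean log2 value in the double mutant against the mean in met-2 for each of the 2949 genes, with 218 genes called higher and 130 called lower in colour and the line of equal values drawn. Most genes lie above the line, and the genes farthest below it are lin-65, hsp-70, srw-85 and hsp-16.2.

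Every measured inducible heat shock gene was lower when lin-65 was also lost. Inducible heat shock genes are switched on by the factor HSF-1 when proteins misfold, and they encode the HSP70 chaperones hsp-70, F44E5.4 and F44E5.5 and the small heat shock proteins of the hsp-16 family. All 9 measured identifiers of the list were called lower in the double mutant, with a median difference of −2.64, against 4.41% of all genes. A gene could be listed through a low value in either strain without lin-65, so this share describes the listed genes only. F44E5.4 and F44E5.5 were listed for lin-65 and the double mutant but not for met-2. Of 127 genes listed that way 53 were lower. All 9 were also lower in each of the 14 alternative fits, centred and without met-2 replicate 1 included. hsp-70 (chromosome I) stood at −0.88, −1.23 and −0.71 in met-2 and at −4.96, −4.76 and −4.65 in the double mutant. Every met-2 library was somewhat below N2, and every double mutant library was far lower still. The difference was 14.4-fold (−3.84, SE 0.20, limma adjusted p = 8.46e-11).

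The small heat shock gene hsp-16.2 (chromosome V) stood at −0.24, −0.64 and −0.24 in met-2 and at −3.71, −3.48 and −3.38 in the double mutant. The strains were again wide apart, by −3.15 (SE 0.20, limma adjusted p = 1.38e-09). For hsp-16.41 the difference was −2.64, for F44E5.4 and F44E5.5 −2.48 each, and for the 2 identifiers each of hsp-16.1 and hsp-16.48 between −2.92 and −2.29. Since hsp-16.1, hsp-16.48 and the F44E5 pair are near-identical copies, reads may have been divided between them, and 9 identifiers are fewer independent genes. The lin-65 single mutant, whose libraries enter neither side of the comparison, had hsp-70 at −4.40, −4.56 and −5.10 and hsp-16.2 at −2.74, −2.89 and −3.54. The list medians were −0.36, −0.85 and −0.41 in the met-2 libraries, −2.53, −2.36 and −3.05 in lin-65, and −3.50, −3.30 and −3.17 in the double mutant.

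Other chaperones were mixed. Of 7 measured constitutive chaperones and other small heat shock genes, dnj-13, a DnaJ co-chaperone, was lower at −1.04 (limma adjusted p = 0.00119) and sip-1, a small heat shock protein of embryos, was higher at 0.73 (limma adjusted p = 0.027). The dnj-13 call held in all 14 alternative fits, whereas sip-1 was not called after centring. The remaining 5 had differences from −0.01 for hsp-12.3 to 0.62 for hsp-12.1 and were not called. The gene next to hsp-70, uggt-2, related to the glucosyltransferase that checks glycoprotein folding, was also lower at −1.13 (limma adjusted p = 0.000829). It was picked after its value was seen.

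**Figure D3:**
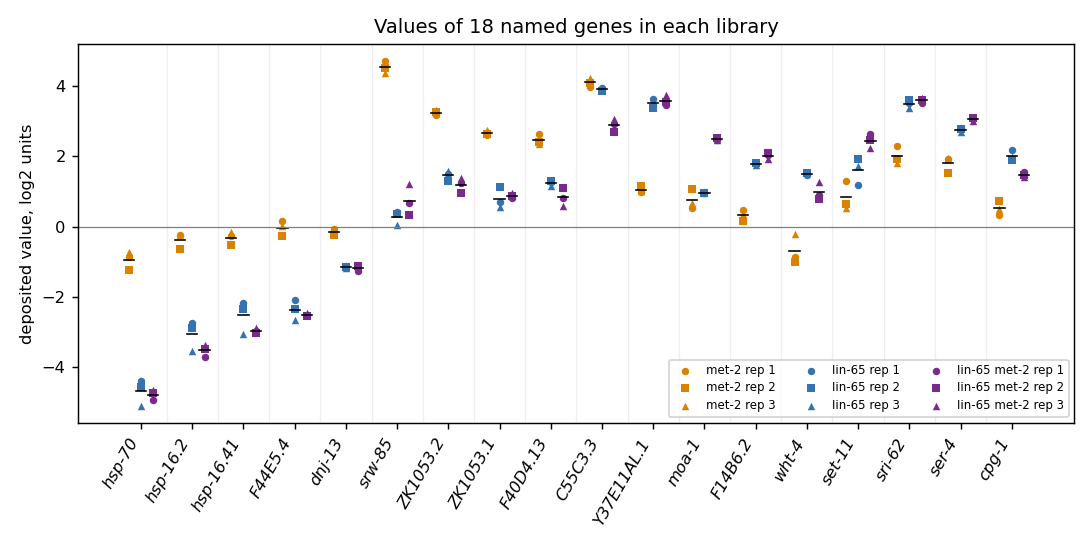
Deposited log2 values of 18 named genes in each met-2, lin-65 and double mutant library, with a bar at each strain's mean. The heat shock genes and dnj-13 are low in both strains without lin-65, srw-85 and the ZK1053 genes are highest in met-2, and Y37E11AL.1 and sri-62 are high in both strains without lin-65.

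The 130 lower genes fell from a median of 0.03 in met-2 to −1.06 in the double mutant, with differences between 0.61 and 5.82 in size and a median of −0.95. In met-2 85 of them had a mean between −1 and 1, so they stood less than 2-fold from N2, and in the double mutant 69 were at or below −1. The lin-65 libraries had a median of −1.07 for these genes. All 3 lin-65 libraries lay below 0 for 89 of the 130, while this held for 219 of all 2949 genes (7.43%). A gene could enter the tables through a low value in either strain without lin-65, so this count describes the listed genes only. Among the 130 were 10 of the 39 listed pseudogenes, beside 4.41% lower over all genes.

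Other genes with no role named here fell by amounts in the range of the heat shock genes. The pseudogene dct-10 (chromosome V) stood at 0.84, 0.22 and 0.70 in met-2 and at −2.47, −2.33 and −2.45 in the double mutant. It was thus above N2 in every met-2 library and at least 2 log2 units below N2 in every double mutant library (difference −3.0, SE 0.21, limma adjusted p = 3.94e-09), and it was at −2.13, −2.1 and −2.26 in lin-65. Its neighbour Y38H6C.8 fell by 2.39, from 0.20, 0.09 and 0.19 to −1.93, −2.11 and −2.63. WBGene00021577, which has no name or position in the annotation used, fell by 2.36, from 1.26, 1.21 and 1.41 to −1.27, −0.83 and −1.11. All of these calls held in the 14 alternative fits.

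A smaller group was raised in met-2 and lower in the double mutant. Of the 130 lower genes 44 had a met-2 mean of at least 1, and 36 had all 3 lin-65 libraries above 0. Both shares were below those over all 2949 genes, where the counts were 2014 and 2552 (86.5%). The chemoreceptor srw-85 (chromosome V), of a family of receptors that sense chemicals in nerve cells, stood at 4.71, 4.53 and 4.39 in met-2 and at 0.68, 0.32 and 1.21 in the double mutant. Its met-2 mean was the highest of all genes, whereas its double mutant libraries lay near the lin-65 ones, at 0.41, 0.35 and 0.04. The difference was 14-fold (−3.81, SE 0.23, limma adjusted p = 4.08e-10). The neighbours ZK1053.2 and ZK1053.1 (chromosome I) behaved alike. ZK1053.2 stood at 3.17, 3.26 and 3.32 in met-2, at 1.24, 0.96 and 1.38 in the double mutant and at 1.49, 1.30 and 1.59 in lin-65, a difference of −2.05 (limma adjusted p = 3.91e-07). ZK1053.1 differed by −1.78 and F40D4.13 (chromosome V) by −1.63. None of these genes overlapped between the strains, and each call held in all 14 alternative fits.

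C55C3.3 (chromosome IV) differed from the genes named just above. It stood at 3.99, 4.09 and 4.24 in met-2, at 3.95, 3.86 and 3.92 in lin-65, and at 2.91, 2.69 and 3.08 in the double mutant. It was high in both single mutants and lower, though still above N2, when both genes were lost (difference −1.21, SE 0.20, limma adjusted p = 0.000314). The nuclear hormone receptor nhr-247 fell from 2.02, 1.78 and 2.05 to 0.40, 0.60 and 0.78 (difference −1.36, limma adjusted p = 9.27e-05), and its lin-65 values were 0.26, 0.07 and 0.00. In 25 of the 36 genes with lin-65 values above 0 the double mutant mean was below the lin-65 mean as well as below met-2.

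The 218 higher genes rose from a median of 1.13 in met-2 to 1.94 in the double mutant, with differences between 0.60 and 2.53 and a median of 0.74. Of these 121 already had a met-2 mean of at least 1, and 192 reached that level in the double mutant. All 3 lin-65 libraries were above 0 for 210 of the 218, but this was also so for 2552 of all 2949 genes (86.5%). At least 1 log2 unit separated the strains in 28 of them. In contrast 57 of the 130 lower genes differed by that much.

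The gene that rose most was Y37E11AL.1 (chromosome IV). It stood at 0.99, 1.15 and 1.02 in met-2 and at 3.47, 3.54 and 3.74 in the double mutant, a 5.78-fold difference (2.53, SE 0.19, limma adjusted p = 1.31e-08). The double mutant values lay at those of lin-65, 3.63, 3.38 and 3.55. The ABC transporter gene wht-4 (chromosome II) was below N2 in met-2, at −0.85, −1.0 and −0.22, and above it in the double mutant, at 0.89, 0.79 and 1.27 (difference 1.68, limma adjusted p = 3.73e-05). It stood at 1.46, 1.52 and 1.53 in lin-65. F14B6.2 (chromosome I) rose by 1.69, from 0.48, 0.16 and 0.37 to 2.04, 2.1 and 1.93, and had 1.79, 1.81 and 1.75 in lin-65. The serotonin receptor gene ser-4 (chromosome III) rose by 1.25, from 1.93, 1.52 and 1.96 to 3.06, 3.08 and 3.02, and the germline Y-box RNA-binding protein cey-2 (chromosome I) rose by 1.15. For each of these genes the lin-65 libraries lay above all met-2 libraries.

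Other genes stood above both single mutants. The neighbours moa-1, R155.3 and R155.4 (chromosome III) were all higher, with R155.4 annotated as a pseudogene. moa-1 stood at 0.52, 1.08 and 0.69 in met-2, at 0.98, 0.96 and 0.97 in lin-65 and at 2.47, 2.54 and 2.46 in the double mutant (difference from met-2 1.73, SE 0.20, limma adjusted p = 6.47e-06). R155.3 stood at 1.26, 1.5 and 1.54 in met-2, at 1.00, 0.68 and 1.36 in lin-65 and at 2.91, 2.88 and 3.04 in the double mutant, and R155.4 rose by 1.72. All double mutant libraries of these genes lay above all libraries of either single mutant. The same order held for ZK1025.3 (chromosome I), which stood at 1.52, 2.21 and 1.96 in met-2, at 1.01, 1.14 and 0.70 in lin-65 and at 3.53, 3.36 and 3.56 in the double mutant (difference 1.59, limma adjusted p = 2.92e-05). Whether the joint loss gave more than the sum of the single losses was not tested, since the N2 libraries were not analysed here.

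On chromosome II the neighbours set-11, sri-62 and sri-61 were higher together. set-11 encodes a protein with a SET domain, the fold of many histone methyltransferases. It stood at 1.31, 0.66 and 0.53 in met-2 and at 2.63, 2.47 and 2.25 in the double mutant, so that replicate 1 of met-2 was nearest to the double mutant without reaching it. The difference was 1.62 (SE 0.22, limma adjusted p = 4.49e-05), and 1.86 without met-2 replicate 1. The chemoreceptor sri-62 rose by 1.59, from 2.29, 1.92 and 1.82 to 3.51, 3.60 and 3.68, and sri-61 by 1.16. The remaining genes among the 15 with the widest upward differences were asp-13 (1.2), an aspartyl protease, moc-5 (1.23), of molybdenum cofactor synthesis, and ins-6 (1.13), an insulin-like peptide. All 15 stayed called after centring and without met-2 replicate 1.

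Called genes lay next to each other more often than listed genes at large. Of 122 lower genes with a position, 42 (34.4%) had another lower gene within 10 kb, whereas 110 of all positioned genes (3.83%) had one. Without the heat shock genes the count was 32 of 113 (28.3%). For the higher genes it was 28 of 210 (13.3%) against 195 of all positioned genes (6.80%). This measure was chosen after the values had been seen, families of near-identical copies are among the neighbours, and the difference was not tested. Within the autosomes, cut into 3 equal parts, 87 of 1382 genes in the outer parts were lower (6.30%) and 26 of 900 in the middle part (2.89%). On the X chromosome 9 of 587 genes were lower (1.53%) and 49 higher (8.35%). There the order was reversed, with 1.15% lower in the outer parts and 2.08% in the middle part. Chromosome II held 35 lower genes of 492 (7.11%) and chromosome III 5 of 304 (1.65%).

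**Figure D4:**
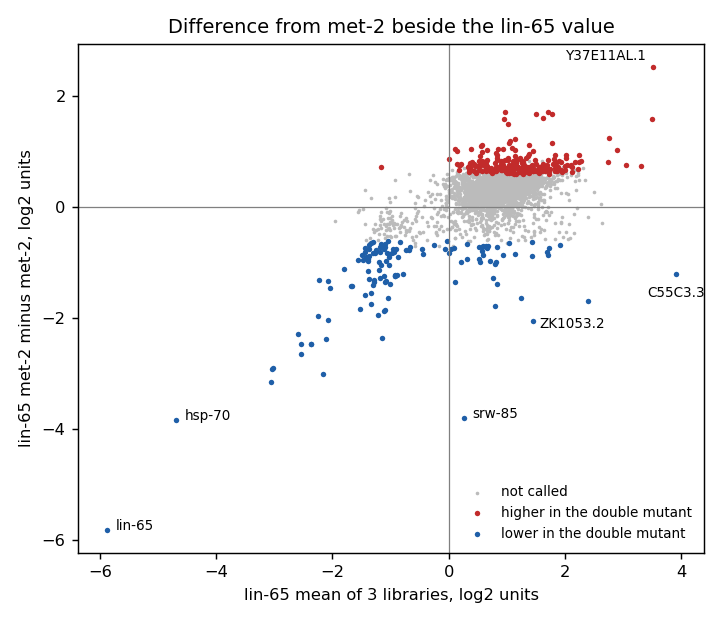
Difference between the double mutant and met-2 for each of the 2949 genes, in log2 units, against the mean of the 3 lin-65 libraries, which enter neither side of that difference. Genes far below 0 on both axes include lin-65 and hsp-70, while srw-85, ZK1053.2 and C55C3.3 are lower in the double mutant although their lin-65 means are above 0.

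Across the 2949 genes the difference from met-2 and the lin-65 mean had a Pearson r of 0.594 and a Spearman rho of 0.381, as a description across genes, which are not independent replicates. The genes share their libraries, and the selection of the tables shapes both axes. The Pearson r was 0.572 without met-2 replicate 1.

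For transcripts of differentiated tissues the counts changed both when replicate 1 of met-2 was left out and when libraries were centred. Of 29 body wall muscle genes none was called by limma, with 8 above at an unadjusted p under 0.05 and a median difference of 0.32, close to that over all genes. Without met-2 replicate 1, 26 were called higher with a median of 0.52, beside 64.2% of all genes higher in that fit. After centring none was higher and ttn-1, the titin-like giant muscle protein, was lower, and with both changes 1 was higher. The muscle medians were 2.09, 1.51 and 1.57 in the met-2 libraries and 2.04, 2.02 and 2.06 in the double mutant. Replicate 1 was the highest met-2 library in 29 of 29 muscle genes and stood at or above the double mutant in their median, while the other met-2 libraries were below it. The part of this library in the result was not tested.

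Other tissues also had few calls as deposited. No intestinal gene of 17, no epidermal gene of 8 and no neuronal gene of 27 was called by limma, with 3, 2 and 11 higher at an unadjusted p under 0.05. Without met-2 replicate 1 the counts called higher were 14, 8 and 21, beside 64.2% of all genes. After centring none was higher in these 3 lists and 2 intestinal genes were lower, and with both changes 1 was higher in each. Of 11 pharyngeal genes 1 was higher, phat-1 at 0.70, and all 11 were without met-2 replicate 1. Of 45 cilium genes 2 were higher, and 34 were without that library. After centring 1 cilium gene and no pharyngeal gene was higher. The part of replicate 1 in these counts was not tested.

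Few cuticle genes were called. Of 69 collagens 3 were higher and none was lower by limma, with 4 lower at an unadjusted p under 0.05 and a median of 0.09, below that of all genes. col-33 rose most at 0.85. After centring 11 were lower and none higher, beside 8.68% and 3.12% of all genes. Without met-2 replicate 1 there were 33 higher and 5 lower, beside 64.2% and 6.99% of all genes. Of 44 cuticlins and molting genes 3 were higher, led by lpr-7, a lipocalin-related protein, at 0.80, and nas-36, a metalloprotease of molting, was lower at −0.86. With that library left out, 34 of these 44 were higher, beside 64.2% of all genes. The hedgehog-related and patched-related genes, which in this worm act in the cuticle and epidermis, had 9 of 44 called higher and 1 lower, against 7.39% of all genes higher. The patched-related ptr-16 stood at 2.79, 1.78 and 1.81 in met-2 and at 3.15, 3.02 and 3.05 in the double mutant (difference 0.94, limma adjusted p = 0.0189), and grl-7 rose by 0.89. The groundhog-like gene grl-21 went the other way, from 2.66, 2.58 and 2.12 to 1.18, 1.76 and 1.61. The count of higher genes in this list was 29 without met-2 replicate 1, where 64.2% of all genes were higher. It was 1 without met-2 replicate 2 and 0 without met-2 replicate 3. It was 2 without double mutant replicate 1 or 3 and 1 without double mutant replicate 2. After centring 6 were higher and 4 lower, beside 3.12% and 8.68% of all genes.

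**Figure D5:**
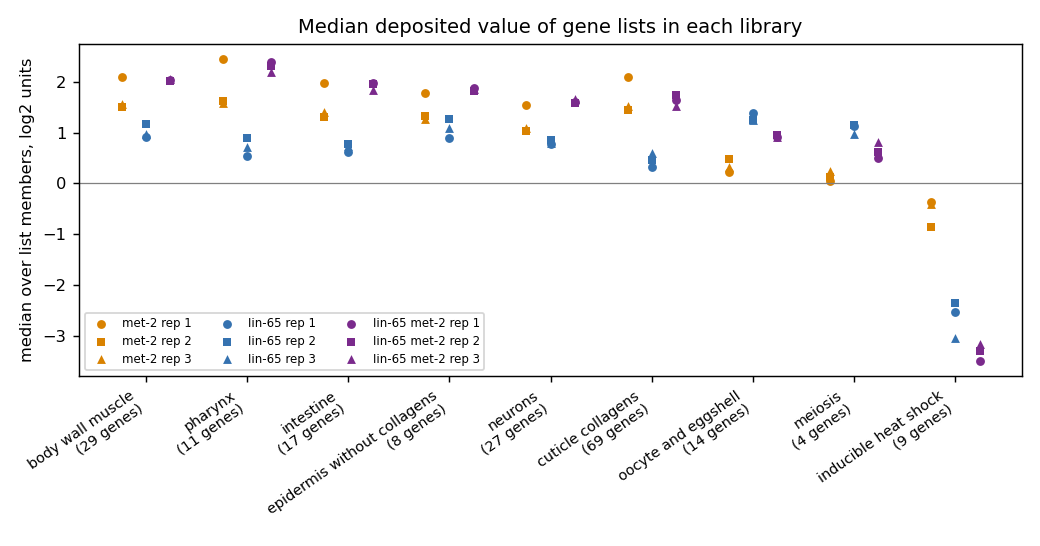
Median deposited log2 value of 9 gene lists in each library of the 3 mutants. In the tissue lists met-2 replicate 1 lies with the double mutant libraries and the other 2 met-2 libraries below them, for muscle at 2.09 against 1.51 and 1.57. In the oocyte and eggshell list the double mutant lies between met-2 and lin-65. In the heat shock list it lies below lin-65, at −3.50, −3.30 and −3.17 against −2.53, −2.36 and −3.05.

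In the oocyte and eggshell list, unlike in the tissue lists above, replicate 1 of met-2 was the lowest of its group in 9 of 14 genes and the highest in 1. Of the 14 genes 8 were called higher in the double mutant (57.1%, beside 7.39% of all genes) and none lower, with a median difference of 0.60, but none was higher after centring or quantile normalization. A gene could be listed through its lin-65 values alone, and without such genes 3 members were called higher. The share and the order of the strains thus describe listed genes only. The medians were 0.22, 0.48 and 0.32 in the met-2 libraries, 1.39, 1.26 and 1.25 in lin-65, and 0.92, 0.96 and 0.91 in the double mutant, so the 3 strains did not overlap. The eggshell proteoglycan gene cpg-1 stood at 0.34, 0.74 and 0.50 in met-2 and at 1.55, 1.46 and 1.42 in the double mutant (difference 0.95, SE 0.20, limma adjusted p = 0.00367), with 2.19, 1.90 and 1.97 in lin-65. Its relative cpg-2 rose by 0.79 and the yolk receptor rme-2 by 0.66. Without met-2 replicate 1 the number called was 12, beside 64.2% of all genes in that fit. It was 6 without met-2 replicate 2 and 1 without met-2 replicate 3 or any 1 double mutant library. The synaptonemal complex gene syp-2 was the only called gene of 4 meiosis genes, at 0.60, and of 3 germ granule genes pgl-3 had 0.58 (limma adjusted p = 0.0523) and none was called, with 2 higher at an unadjusted p under 0.05. The nuclear Argonaute hrde-1, the only measured heterochromatin gene, had 0.54 (limma adjusted p = 0.0644).

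Among adaptors of ubiquitin ligases and chemoreceptors, lower calls outnumbered higher ones as deposited. Both kinds of call grew without met-2 replicate 1, as they did over all genes. F-box proteins, which choose substrates for such ligases, had 8 of 31 called lower (25.8%, beside 4.41% of all genes) and none higher, with 11 lower and 2 higher at an unadjusted p under 0.05, and a median of −0.15 that turned to 0.03 without met-2 replicate 1. fbxb-97 fell from −0.52, −0.20 and −0.03 to −1.54, −1.36 and −1.32 (difference −1.16, limma adjusted p = 0.000674). fbxa-211 fell from 1.71, 1.67 and 2.04 to 0.89, 0.89 and 0.99 although lin-65 had 1.45, 1.47 and 1.39. The count of lower genes was 1 without met-2 replicate 3 and 3 without any 1 double mutant library. After centring it was 11, beside 8.68% of all genes. With met-2 replicate 1 left out, 11 were lower and 6 higher, beside 6.99% and 64.2% of all genes. Of 25 MATH and BTB proteins, adaptors of another ligase family, bath-34 (−1.35), bath-20 (−0.99) and bath-45 (−0.73) were lower. None was called higher by limma, with 1 higher at an unadjusted p under 0.05. With met-2 replicate 1 left out, 6 of the 25 were higher and 5 lower, beside 64.2% and 6.99% of all genes.

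Of 32 chemoreceptors 7 were lower (21.9%, beside 4.41% of all genes) and 3 higher (9.38%, beside 7.39%). The counts were 10 lower and 9 higher without met-2 replicate 1, beside 6.99% and 64.2% of all genes. Beside srw-85 the lower ones included sre-48 at −1.35 and sre-43 at −0.82, and the higher ones were sri-62, sri-61 and srj-26. srj-26 was listed at 0.00, 0.00 and 0.35 in met-2 and at 1.15, 1.28 and 1.27 in the double mutant, a difference of 1.12. The count of lower chemoreceptors was 4 without met-2 replicate 2, 2 without met-2 replicate 3, 2 without double mutant replicate 1 and 3 without double mutant replicate 2 or 3.

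The remaining lists held few calls, and their shares are to be read beside 7.39% higher and 4.41% lower over all genes. Of 64 ion channels 5 were higher (7.81%, near the share of all genes), led by the glutamate-gated chloride channel glc-2 at 1.04, and 2 were lower, the acid-sensing channel gene asic-1 at −0.86 and the potassium channel kqt-1 at −0.77. Of 48 nuclear hormone receptors 4 were higher, led by nhr-170 at 0.76, and nhr-247 was lower. Neuropeptides and insulins had ins-6 higher and ins-30 lower (−0.75) of 30. Of 38 C-type lectins 1 was higher and 2 lower, of 32 transthyretin-like and lipid carriers 1 each, and of 22 abu and pqn genes abu-8 was lower at −0.61. Of 25 immune effectors 1 was higher, spp-13 at 0.68, and of 34 detoxification enzymes 1 was, ugt-8 at 0.82. The sperm list had spe-19 lower at −0.94 among 5 genes. No homeobox or other developmental factor of 26, no acetylcholinesterase of 3 and no histone of 2 was called by limma, with 6, 1 and 2 higher at an unadjusted p under 0.05, and sdz-6, the 1 early zygotic gene, differed by −0.04. The higher calls in these lists grew without met-2 replicate 1, to 45 ion channels, 32 nuclear hormone receptors, 13 neuropeptides and insulins, 23 lectins, 25 transthyretin-like and lipid carriers, 22 immune effectors, 20 detoxification enzymes and 16 developmental factors, in a fit that called 64.2% of all genes higher. Ribosomal protein and apoptosis genes had no measured member. Genes known only by a sequence name made up 1205 of the 2949, of which 8.55% were higher and 5.56% lower.

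The authors' tables divide the genes by the mutant in which they were selected, from the same libraries, so the following counts describe that selection. Of 127 genes listed for met-2 alone 29 were lower in the double mutant and 1 higher. Of 127 listed for lin-65 and the double mutant 53 were lower and 20 higher. Of 662 listed for all 3 mutants 80 were higher and 7 lower, and of 716 listed for the double mutant alone 61 were higher and 14 lower. Of 1133 listed for met-2 and the double mutant 31 were higher and 3 lower.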

How the data were processed

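Total RNA was measured in early embryos. The authors deposited 3 tables, 1 per mutant, of log2 values for 9 mutant libraries; the N2 libraries are not analysed here. The submitters' processing notes name edgeR and the build ce10. Not given in the sources used here are the aligner, counting, annotation, scaling, selection rule and baseline; the last was read from the values.

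Genes in several tables had identical values and were taken once. The deposited log2 values were fitted with limma 3.58.1 in R 4.3.3 (6 libraries, no covariate, no trend, Benjamini-Hochberg adjustment at 0.05), since the met-2 libraries varied more than the lin-65 ones. The code was tested on simulated data. Alternatives were 14 other fits and a limit of 1 log2 unit. Names, types and order of genes came from the Ensembl annotation of WBcel235 and from RefSeq; 2869 genes matched, 80 did not, and no coordinate was converted or printed. Symbols shared by several identifiers are uncertain.

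Members and the 35 gene lists were chosen with earlier results of these data known. Named were lin-65 and met-2; the 15 widest called differences per direction without overlap; all members of lists of up to 10 measured genes and the 3 highest and 3 lowest of longer lists; and 5 called genes with high met-2 and low differences. Other genes named were picked after their values were seen. A planned count of promoter motifs was not run.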

Additional observations from a re-analysis of the deposited data

Results flagged for a closer look

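For 14 genes named here, besides Y102A5C.36, the lin-65 values were above 0 while the double mutant stood below the met-2 mutant. All 3 lin-65 libraries stood above 0, the N2 level, while all 3 double mutant libraries stood below all 3 met-2 libraries and the gene was called lower by limma. The difference from met-2 was −3.81 for srw-85, −2.05 for ZK1053.2, −1.78 for ZK1053.1, −1.63 for F40D4.13, −1.36 for nhr-247 and −1.21 for C55C3.3. It was −0.99 for bath-20, −0.94 for spe-19, −0.94 for grl-21, −0.88 for fbxa-211 and −0.86 for asic-1. It was −0.73 for bath-45, −0.71 for clec-104 and −0.69 for clec-74. The lin-65 means of these genes ran from near 0, at 0.11 for nhr-247 and 0.27 for srw-85, to 3.91 for C55C3.3. No least size above 0 was set, and the lin-65 values were not tested against N2. Whether loss of lin-65 acted differently with and without met-2 was not tested either, because the N2 libraries were not analysed here. Among all genes 36 met the same description, and 34 of them had a met-2 mean of at least 1. In 1 of the 36 all 3 double mutant libraries were below 0. Over all 2949 genes, 2552 (86.5%) had all 3 lin-65 libraries above 0 and 2014 had a met-2 mean of at least 1. In the opposite direction there was 1 gene, the potassium channel twk-46, which rose by 0.72 from met-2 while lin-65 stood at −1.28, −1.33 and −0.86.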

How the results depend on the processing

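The 9 heat shock genes were called lower in all 14 alternative fits. The genes called higher, 218 as deposited, were 348 with all 9 libraries in 1 fit, 92 after centring, 60 after quantile normalization, 2012 with library weights, where met-2 replicate 1 had a weight of 0.092, and 28 at a limit of 1 log2 unit. Leaving out 1 library gave 39 to 1892. The genes called lower, 130 as deposited, were 256 after centring, 245 with weights, 341 after centring without met-2 replicate 1 and 57 at the size limit, and 76 to 206 with 1 library left out. With the replicate block 380 genes were higher and 143 lower. Deviations of same-numbered libraries correlated at 0.016, 0.028 and 0.034, each library best with its own number but all too weak to pair them.

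Muscle genes called higher were 1 with all 9 libraries, 26 with weights, 1 after centring without met-2 replicate 1 and 0 to 26 with 1 library left out. Oocyte genes called higher were 0 after centring, quantile normalization or at the size limit, 13 with weights, 1 after centring without met-2 replicate 1, 3 among genes of the met-2 or double mutant tables, and 1 to 12. F-box genes called lower were 3 after quantile normalization, 13 with weights, 14 after centring without met-2 replicate 1, 1 at the size limit, and 1 to 11. Hedgehog-related genes called higher were 0 after quantile normalization or at the size limit, 29 with weights, and 0 to 29. Chemoreceptors called lower were 14 with weights or after centring without met-2 replicate 1, 2 at the size limit, and 2 to 10. In every list the last range is over leaving out 1 library.

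Of 189 named genes 78 were called, 36 of them in every fit they entered. The sign turned in 3 cases, to 1.67 for sdz-6 and 2.15 for met-2 under quantile normalization and to −0.41 for wago-4 after centring without met-2 replicate 1. The median difference ranged from 0.227 to 0.472 over the libraries left out. The replicate block changed no direction of a named gene. The cause of these changes was not tested. Depth is unknown, so its limits cannot be given.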
